A study of Mus musculus with 11 samples.

Results

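The genes described are 10 members of the fibroblast growth factor (FGF) system: the ligand genes Fgf1, Fgf2, Fgf7, Fgf9, Fgf10 and Fgf18, and the receptor genes Fgfr1, Fgfr2, Fgfr3 and Fgfr4. They were taken by symbol from a table of 24411 gene symbols. All 10 were found, and 9 passed the filter on low counts, the exception being Fgf2. RNA was sequenced from lung mesenchymal cells of C57BL6 mice, sorted as EpCAM-, CD45- and CD31-, a gate meant to leave out epithelial, blood and endothelial cells. The mice had undergone pneumonectomy (PNX), the removal of lung tissue by surgery, or sham surgery, and the cells were taken on day 7 or day 14. There were 3 libraries of sham at day 7, 3 of PNX at day 7, 2 of sham at day 14 and 3 of PNX at day 14. The labels name no allele, transgene or further agent, and give neither the age of the mice nor whether each replicate was a separate animal. The p-values therefore reflect how far these libraries differ from each other, a spread that may be technical in part.

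FGF ligands are mostly secreted proteins that bind receptor tyrosine kinases on the cell surface, with heparan sulphate as a cofactor, and signal inside the cell largely through RAS and the MAP kinases. In the lung, Fgf7 and Fgf10 are made by mesenchymal cells and act on the epithelium through a splice form of Fgfr2, while Fgf9, made by the mesothelium and the epithelium of the developing lung, acts back on the mesenchyme. Fgfr3 and Fgfr4 are known for a joint role in the formation of alveolar septa. Counts per gene, as used here, do not separate splice forms of a receptor.

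Total counts ran from 2539628 to 9008592 per library. The mesenchymal genes Pdgfra (155 to 1192 CPM), Col1a1 (421 to 5695 CPM) and Dcn (3601 to 12439 CPM) were present in all 11 libraries. CPM stands for the counts of a gene per 1000000 counts of its library, scaled by the TMM factors of edgeR. RNA of the gated-out cells was present too: Epcam ran from 0.580 to 13.4 CPM, Ptprc (the gene of CD45) from 5.26 to 51.1 CPM, Pecam1 (the gene of CD31) from 11.05 to 247 CPM, and none of these was at 0 in any library. Sftpc, a surfactant gene of epithelial cells, ran from 23.5 to 15517 CPM. Replicate 1 of sham at day 14 and replicates 2 of both groups of day 7 had the highest share of counts on olfactory and vomeronasal receptor genes, a measure of background. In 4 of 11 libraries no count fell on 4 Y-linked genes: 1 of sham at day 7, none of PNX at day 7, 1 of sham at day 14 and 2 of PNX at day 14. The presence of Y-linked counts was thus not balanced over the groups. Libraries with and without such counts cannot be of the same animal, so the libraries of each group but PNX at day 7 cannot all be.

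The 4 receptor genes are related in sequence, so it matters whether their reads can be told apart. Among the transcripts with the longest coding sequence in GENCODE M21 (mm10), Fgfr4 shared an exact run of at most 20 bases with Fgfr1, 14 with Fgfr2 and 20 with Fgfr3. The longest run between any pair was 26 bases, between Fgfr1 and Fgfr3. The stretches below hold both 20-base runs of Fgfr4, with the shared run in capitals, because Fgfr4 is the gene the results turn on. The first pair lies in exon 5 of 18 of each gene, at chr13:55156785-55156834 on the plus strand for Fgfr4 and chr8:25558088-25558137 on the plus strand for Fgfr1.
Fgfr4: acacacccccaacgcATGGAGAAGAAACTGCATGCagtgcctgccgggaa
Fgfr1: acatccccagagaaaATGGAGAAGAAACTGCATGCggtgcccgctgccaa
The second pair lies in exon 6 of each gene, at chr13:55159106-55159155 on the plus strand for Fgfr4 and chr5:33729948-33729997 on the plus strand for Fgfr3.
Fgfr4: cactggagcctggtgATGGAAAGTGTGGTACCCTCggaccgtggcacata
Fgfr3: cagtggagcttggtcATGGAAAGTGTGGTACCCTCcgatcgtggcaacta
All 4 stretches are coding. The letters outside the capitals differ at several places within each pair, and the read length behind the deposited counts is not given in the sources used here.

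Fgfr4 was lower after PNX than after sham on both days and was the single member of the 10 past the test, in the mean of both days. Fgfr4 encodes a receptor tyrosine kinase and lies at chr13:55152640-55168759 on the plus strand. In sham at day 7 its level was 10.96, 32.2 and 23.9 CPM in replicates 1 to 3, and in PNX at day 7 it was 9.01, 7.75 and 7.20 CPM. In sham at day 14 it was 13.8 and 32.1 CPM, and in PNX at day 14 it was 5.41, 4.39 and 3.596 CPM. All 6 PNX libraries lay below all 5 sham libraries, and the lowest sham library was 10.96 CPM against 9.01 CPM for the highest PNX library. Of the 16011 genes tested, 71 (0.443%) had all PNX libraries below all sham libraries.

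The counts behind Fgfr4 were 41 to 263 in the sham libraries and 16 to 56 in the PNX libraries. Group means were 22.4 ± 10.7 CPM (SD, n = 3) in sham and 7.99 ± 0.93 CPM (SD, n = 3) in PNX at day 7. At day 14 they were 22.9 ± 12.9 CPM (SD, n = 2) in sham and 4.47 ± 0.91 CPM (SD, n = 3) in PNX. The sham libraries thus spread widely while the PNX libraries lay close together. In edgeR's quasi-likelihood test, with Benjamini-Hochberg adjustment over all 16011 genes, Fgfr4 fell by 1.92 on the log2 scale in the mean of both days (SE 0.33, 95% interval -2.61 to -1.24, adjusted p = 0.0137). It was 1 of 9 genes called lower in that comparison, 0.0562% of those tested, and 22 genes (0.137%) were called higher. These counts depended on single libraries: with each library left out in turn, lower calls ran from 2 to 148 and higher calls from 6 to 44, the highest of both without sham day 7 replicate 1. By day, the log2 fold change was -1.48 ± 0.44 (SE) at day 7, with an adjusted p of 0.150, and -2.37 ± 0.48 at day 14, with an adjusted p of 0.0905, so neither day passed alone. The difference between the days was -0.89 ± 0.65 on the log2 scale and did not pass the test (adjusted p = 0.669).

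**Figure D1:**
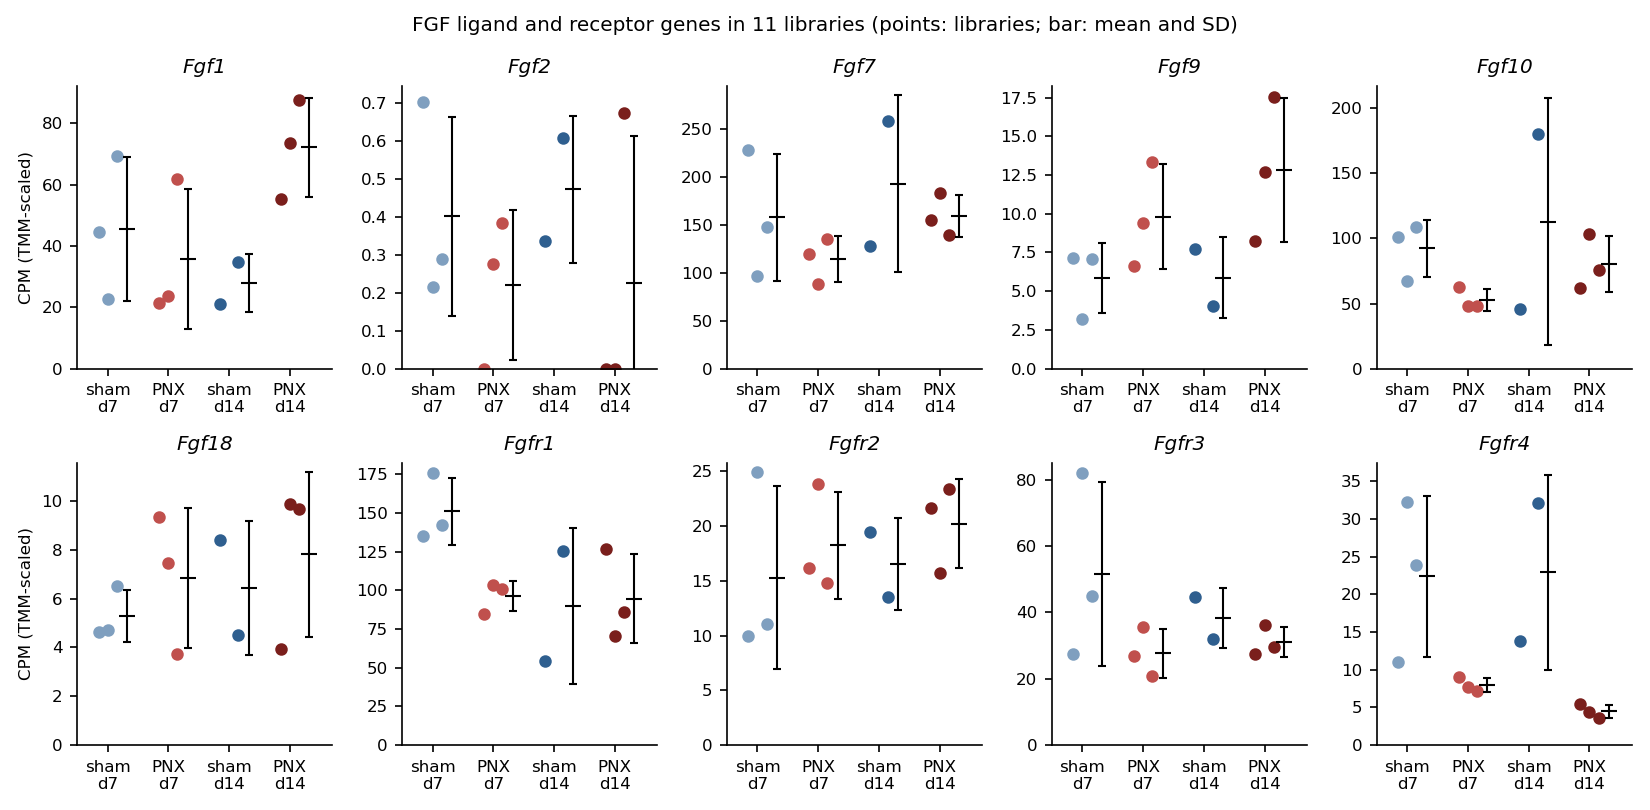
Level of each of the 10 genes in CPM (vertical axis, 1 scale per gene, starting at 0) in the 4 groups; points are libraries, and the bar beside them is the group mean with its SD. In the Fgfr4 panel, all 6 PNX libraries (3.596 to 9.01 CPM) lie below all 5 sham libraries (10.96 to 32.2 CPM), a separation that none of the other 9 genes shows.

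The call for Fgfr4 held in 17 of 24 other settings. It held in 8 of 11 fits that each left out a library, where log2 fold changes ran from -2.17 to -1.50 and adjusted p from 0.00337 to 0.101. Leaving out replicate 2 of sham at day 14 ended the call (-1.50 ± 0.35, adjusted p = 0.101). So did leaving out PNX replicate 2 (adjusted p = 0.0745) or replicate 3 (adjusted p = 0.0728) of that day. Without the 3 libraries of highest background Fgfr4 was at -1.97 ± 0.37 (adjusted p = 0.0243). With the presence of Y-linked counts as a covariate, a setting chosen after seeing the data, it was at -1.94 ± 0.33 (adjusted p = 0.0180). Among the 7 libraries with Y-linked counts alone, likewise chosen after seeing the data, it was at -2.03 ± 0.45 and did not pass (adjusted p = 0.485). DESeq2 called it (-1.93 ± 0.36, adjusted p = 4.54e-05), and limma voom with sample weights did not (-1.77 ± 0.36, adjusted p = 0.154). DESeq2 called 2.07% of all genes in this comparison and limma voom 0.0437%. With an offset for GC content, which is 58.8% in the exons of Fgfr4 and is the highest of the 10 genes, the change was -1.67 ± 0.28 (adjusted p = 0.0187). The replicate number as a block ended the call, alone (adjusted p = 0.0518) or with the GC offset (adjusted p = 0.0717). The labels do not say whether these numbers pair the samples.

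**Figure D2:**
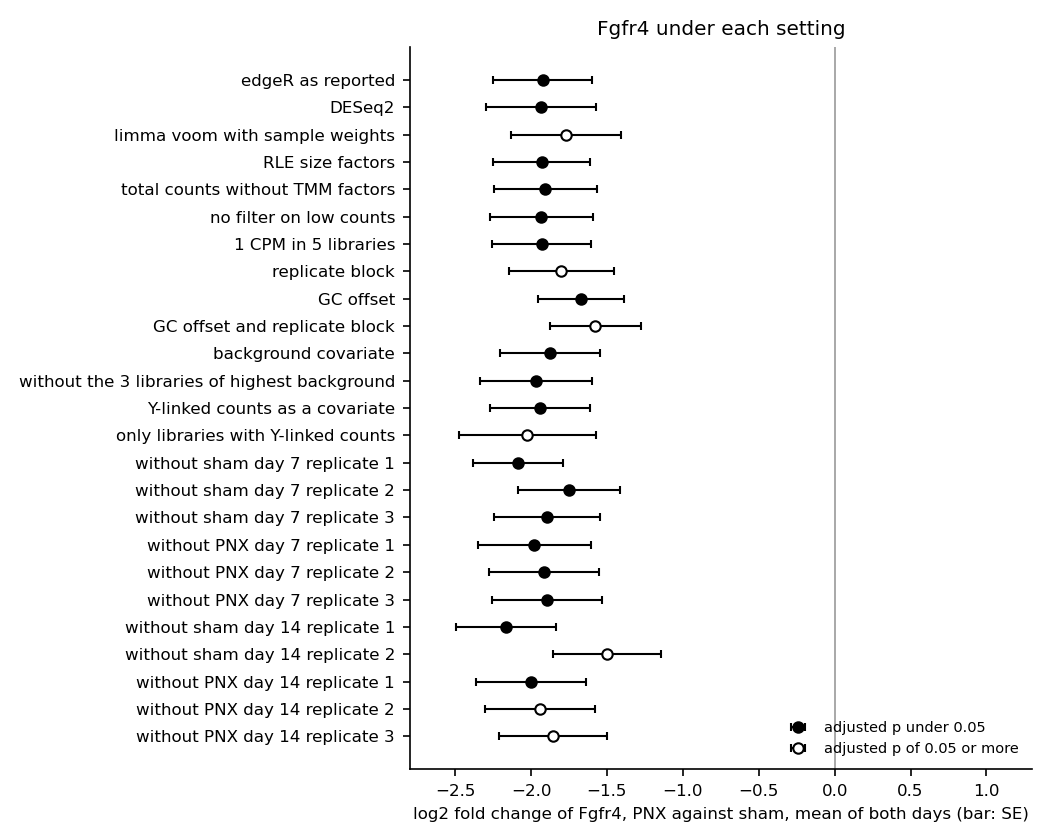
Log2 fold change of Fgfr4, PNX against sham in the mean of both days (horizontal axis, bars are the SE), in the reported edgeR fit and 24 other settings (rows); filled points have an adjusted p under 0.05 and open points do not. All 25 values are negative, and 7 are open: limma voom, both fits with the replicate block, the libraries with Y-linked counts alone, and 3 fits that leave out a library of day 14.

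Markers of alveolar fibroblasts were lower in the same comparison. Of 10 such genes, all 10 had a negative log2 fold change in the mean of both days, with a median of -0.997 against -0.04 over all genes, and 1 was called, Slc7a10, an amino acid transporter gene (-1.83 ± 0.26, adjusted p = 0.00546). Their summed level was 6366 to 8303 CPM in sham at day 7 and 3474 to 4427 CPM in PNX at day 7. At day 14 it was 7108 to 10647 CPM in sham and 4231 to 6771 CPM in PNX, and none of these markers was at 0 in any library. In bulk RNA, fewer cells of a type and less RNA per cell cannot be told apart.

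Set against the mean of these markers, Fgfr4 stood lower in PNX at day 14, where the sham and PNX values lay apart by more than their SDs. At day 7 the PNX values lay within the sham range. The log2 level of Fgfr4 minus the mean log2 level of the 10 alveolar fibroblast markers was -3.89 ± 0.82 (SD, n = 3) in sham and -4.33 ± 0.10 (SD, n = 3) in PNX at day 7. Libraries of that day ran from -4.82 to -3.28 in sham and from -4.44 to -4.24 in PNX. At day 14 the difference was -3.99 ± 0.21 (SD, n = 2) in sham and -5.34 ± 0.31 (SD, n = 3) in PNX. The markers behind this mean did not move alike on that day: 9 were lower and 1 higher. Their log2 fold changes ran from -1.95 for Slc7a10 to 0.08 for Gpc3. Against 10 general mesenchymal markers, the same difference was -5.98 ± 0.75 in sham and -7.30 ± 0.25 in PNX at day 7, and -5.39 ± 0.29 and -8.21 ± 0.19 at day 14. Markers of activated fibroblasts moved the other way: all 10 had a positive log2 fold change in the mean of both days, and 4 were called. Their sum was 671 to 1020 CPM in sham and 1821 to 3086 CPM in PNX at day 7, and 630 to 1039 and 1532 to 2077 CPM at day 14. Blood cell markers were lower in the mean of both days in 16 of 18, with a median of -1.19 and 1 called lower, Laptm5 (-2.08 ± 0.40, adjusted p = 0.0433). Their sum was 117 to 700 CPM in sham and 124 to 194 CPM in PNX at day 7, where 9 of 18 were lower and the median was 0.05. The part of these marker lists in the Fgfr4 result was not tested.

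The genes whose pattern over the 11 libraries was most like that of Fgfr4 were Gja5, a gap junction gene, Klf15, a transcription factor gene, and Slc7a10. Likeness was the root mean square difference of log2 CPM after each gene was centred on its mean, and it was 0.37 for Gja5, 0.39 for Klf15 and 0.40 for Slc7a10, against a median of 1.13 over 9398 genes. Gja5 went from 81.7 to 25.1 CPM between sham and PNX at day 7 and from 53.1 to 16.6 CPM at day 14 (group means). Slc7a10 is one of the alveolar fibroblast markers above. These genes were picked for likeness to Fgfr4, so their direction is a description.

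Among the other receptors, Fgfr3 and Fgfr1 were lower in PNX at day 7 in their group means, without passing the test, and Fgfr2 differed by less than the spread between libraries. Fgfr3, a receptor known as a brake on bone growth, lies at chr5:33721674-33737068 on the plus strand. Its levels were 27.5, 82.0 and 44.9 CPM in sham and 26.7, 35.4 and 20.8 CPM in PNX at day 7. At day 14 they were 44.7 and 31.96 CPM in sham and 27.4, 36.1 and 29.4 CPM in PNX. The groups overlapped on both days, and the highest value of all was a library of high background, sham day 7 replicate 2. In log2 terms PNX differed from sham by -0.90 ± 0.37 at day 7 (unadjusted p = 0.0272, edgeR adjusted p = 0.312) and -0.30 ± 0.41 at day 14 (adjusted p = 0.894).

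Fgfr1, the receptor most typical of mesenchymal cells, lies at chr8:25513654-25575718 on the plus strand. At day 7 it was at 135, 176 and 143 CPM in sham and at 85.0, 103 and 101 CPM in PNX, with no overlap between the groups. Of all genes tested, 9.57% lay wholly lower in PNX on that day. On day 14 the values were 54.1 and 125 CPM in sham and 127, 70.8 and 86.3 CPM in PNX, and the groups overlapped. The log2 fold change was -0.65 ± 0.35 at day 7 (edgeR adjusted p = 0.472) and 0.07 ± 0.39 at day 14 (adjusted p = 0.974). The sign at day 14 turned to -0.03 when libraries were scaled by total counts alone and to -0.38 without the 3 libraries of highest background.

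Fgfr2 carries the epithelial splice form that Fgf7 and Fgf10 bind and a mesenchymal one. GENCODE M21 places it at chr7:130162451-133123350 on the minus strand, a span that includes transcripts joined to the neighbour Ctbp2. It shares 6.14% of its exon bases with Ctbp2 on the same strand. Over all libraries Ctbp2 had 3142 counts and Fgfr2 1048. Since the counting tool is not given, the part of the Fgfr2 counts that this overlap affects is not known. Levels were 9.98, 24.9 and 11.02 CPM in sham and 16.1, 23.8 and 14.8 CPM in PNX at day 7, and 19.5 and 13.5 CPM in sham and 21.6, 15.7 and 23.4 CPM in PNX at day 14. The groups overlapped on both days. PNX differed from sham by a log2 fold change of 0.26 ± 0.39 (95% interval -0.57 to 1.08) at day 7 and 0.30 ± 0.44 (-0.63 to 1.24) at day 14, with edgeR adjusted p of 0.838 and 0.903. In the same order of libraries, 16 epithelial markers summed to 2023, 13826 and 395 CPM in sham at day 7. The sums were 2562, 2310 and 1054 CPM in PNX at day 7. At day 14 they were 14180 and 3426 CPM in sham and 16294, 18702 and 8410 CPM in PNX. The part of these markers in the Fgfr2 values was not tested.

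The make-up of the receptor RNA can be read from levels per kilobase of the longest transcript. Fgfr1 held 59.0% ± 9.44 (SD, n = 3) of the summed receptor level in sham and 59.5% ± 5.36 (SD, n = 3) in PNX at day 7, and was the largest of the 4 in each group mean. On day 14 its share was 45.5% ± 13.6 (SD, n = 2) in sham and 57.6% ± 7.48 (SD, n = 3) in PNX. The share of Fgfr4 was 12.4% ± 3.42 in sham and 7.53% ± 1.45 in PNX at day 7, and 17.6% ± 5.31 and 4.20% ± 0.63 at day 14. This share overlapped between the groups at day 7, at 8.48% to 14.8% in sham and 6.36% to 9.16% in PNX. Fgfr2 held 6.50% ± 1.59 in sham and 12.98% ± 1.93 in PNX at day 7, where its libraries ran from 5.26% to 8.29% and from 11.2% to 15.1%. At day 14 the share of Fgfr2 overlapped between the groups, at 6.95% and 15.1% in sham and 13.1% to 17.7% in PNX. Fgfr3 held 22.1% ± 5.53 in sham and 20.02% ± 3.51 in PNX at day 7, and 25.9% ± 13.1 and 23.5% ± 7.05 at day 14. A rise in the share of one receptor follows in part from a fall in another, since the shares sum to the whole.

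The ligands Fgf7 and Fgf10, which mesenchymal cells send to the epithelium, did not pass the test in either direction. Fgf7, the keratinocyte growth factor gene at chr2:126034658-126091185 on the plus strand, was at 229, 97.1 and 148 CPM in sham and at 120, 88.1 and 135 CPM in PNX at day 7. By day 14 the values were 128 and 258 CPM in sham and 155, 183 and 140 CPM in PNX. The groups overlapped on both days, with log2 fold changes of -0.46 ± 0.37 (95% interval -1.24 to 0.31) and -0.28 ± 0.41 (-1.13 to 0.58). The edgeR adjusted p was 0.679 at day 7 and 0.903 at day 14.

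Fgf10, required for branching of the lung in development, lies at chr13:118669791-118792115 on the plus strand. It was at 100.8, 67.4 and 109 CPM in sham and at 62.7, 47.9 and 47.9 CPM in PNX at day 7, with no overlap. As many as 9.57% of all genes lay wholly lower in PNX on that day. Sham at day 14 held 46.0 and 180.0 CPM, the lowest and the highest of all 11 libraries, and PNX at day 14 held 61.7, 104 and 75.7 CPM. Its log2 fold change was -0.81 ± 0.41 at day 7 (unadjusted p = 0.0644, edgeR adjusted p = 0.434) and -0.50 ± 0.45 at day 14 (adjusted p = 0.840). Set against the mean log2 level of the 10 alveolar fibroblast markers, which were themselves lower in PNX at day 7 in 10 of 10 (median -0.88), Fgf10 was at -1.76 ± 0.42 (SD, n = 3) in sham and -1.67 ± 0.16 (SD, n = 3) in PNX, closer than the SDs. Against the general mesenchymal markers it was at -3.85 ± 0.32 in sham and -4.63 ± 0.30 in PNX on that day. Of 10 adventitial fibroblast markers, 8 were lower at day 7 (median -1.05), and their sum ran from 9407 to 26941 CPM in sham and from 8113 to 15199 CPM in PNX. The part of these markers in the Fgf10 values was not tested. Sham day 14 replicate 2 decided the sign at day 14: without it the log2 fold change was 0.47 for Fgf7 and 0.96 for Fgf10. The sham library then left, replicate 1, had the lowest total counts and the highest background of all 11 libraries. Fgf7 exceeded Fgf10 in every one of the 11 libraries, by 1.36 to 2.83 times in CPM, a ratio that is not corrected for the lengths of the transcripts.

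Fgf1 and Fgf9 stood higher in PNX than in sham at day 14, without overlap and without passing the test. Of all genes tested, 9.57% lay wholly higher in PNX on that day. Fgf1, a ligand that binds all the receptors and lies on chromosome 18, was at 44.7, 22.6 and 69.5 CPM in sham and at 21.4, 23.5 and 61.9 CPM in PNX at day 7. A week later the values were 21.2 and 34.6 CPM in sham and 55.2, 73.6 and 87.7 CPM in PNX. The log2 fold change was -0.35 ± 0.44 at day 7 (edgeR adjusted p = 0.799) and 1.36 ± 0.51 at day 14 (unadjusted p = 0.0168, adjusted p = 0.610). Its sign at day 7 turned to 0.15 with the background as a covariate and to 0.09 without sham day 7 replicate 3.

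Fgf9, at chr14:58070547-58112720 on the plus strand, was at 7.17, 3.22 and 7.10 CPM in sham and at 6.63, 9.41 and 13.4 CPM in PNX at day 7. In sham at day 14 it was at 7.73 and 4.03 CPM and in PNX at 8.21, 12.7 and 17.5 CPM. The groups overlapped at day 7 alone. The log2 fold change was 0.74 ± 0.47 at day 7 (edgeR adjusted p = 0.583) and 1.16 ± 0.55 at day 14 (unadjusted p = 0.0493, adjusted p = 0.728). Markers of the mesothelium, a known source of Fgf9, were also higher in PNX at day 14: 10 of 10 tested had a positive log2 fold change, with a median of 0.89, and their sum ran from 881 to 2067 CPM in sham and from 2537 to 3074 CPM in PNX. At day 7 that sum overlapped, at 1001 to 4068 CPM in sham and 1396 to 3471 CPM in PNX. Mean levels at day 14 in sham and PNX were 17.8 and 258 CPM for Wt1 and 241 and 262 CPM for Msln, so the mesothelial genes did not move alike. Their part in the Fgf9 values was not tested.

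At day 14 all 18 blood cell markers had a negative log2 fold change in PNX, with a median of -2.53, and their sum ran from 732 to 912 CPM in sham and from 321 to 746 CPM in PNX, where up to 2 of the 18 were at 0 in a library. The sums thus overlapped. Their part in the values of Fgfr4, Fgf1 and Fgf9 on that day was not tested. The genes most like Fgf9 over the 11 libraries were Hacd2, Sox6 and Zfp820, at root mean square differences of 0.26, 0.29 and 0.33 against a median of 0.78. Those most like Fgfr3 were Elmsan1, Agap3 and Dnajb2, at 0.25, 0.25 and 0.26 against a median of 0.74.

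Fgf18, a ligand of the growing lung and skeleton at chr11:33117430-33147400 on the minus strand, was low and varied within the groups. It was at 4.64, 4.72 and 6.52 CPM in sham and at 9.35, 7.48 and 3.73 CPM in PNX at day 7, and at 8.40 and 4.51 CPM in sham and 3.92, 9.89 and 9.66 CPM in PNX at day 14. These were 21 to 63 counts per library, and the groups overlapped on both days. Its log2 fold change was 0.36 ± 0.51 (95% interval -0.72 to 1.44) at day 7 and 0.30 ± 0.58 (-0.91 to 1.52) at day 14, with edgeR adjusted p of 0.824 and 0.924.

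Fgf2, the basic fibroblast growth factor gene at chr3:37348346-37410108 on the plus strand, was close to the limit of detection. It had 21 counts in all 11 libraries together, 0 to 5 per library, and none in 3 of them. By group these were 8 in sham and 4 in PNX at day 7, and 6 in sham and 3 in PNX at day 14. The total was 0.321 CPM, unscaled (exact Poisson 95% interval 0.199 to 0.490, which covers counting error only). By group, the upper limit of this interval ran from 0.484 CPM in PNX to 1.13 CPM in sham, both at day 14. Fgf2 was left out of the reported edgeR fit, and so few counts could not resolve a small difference between groups. Its gene model overlaps Nudt6 on the opposite strand over 9.81% of its exon bases, and since the strand setting of the counting is not given, reads of the pair cannot be separated there.

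**Figure D3:**
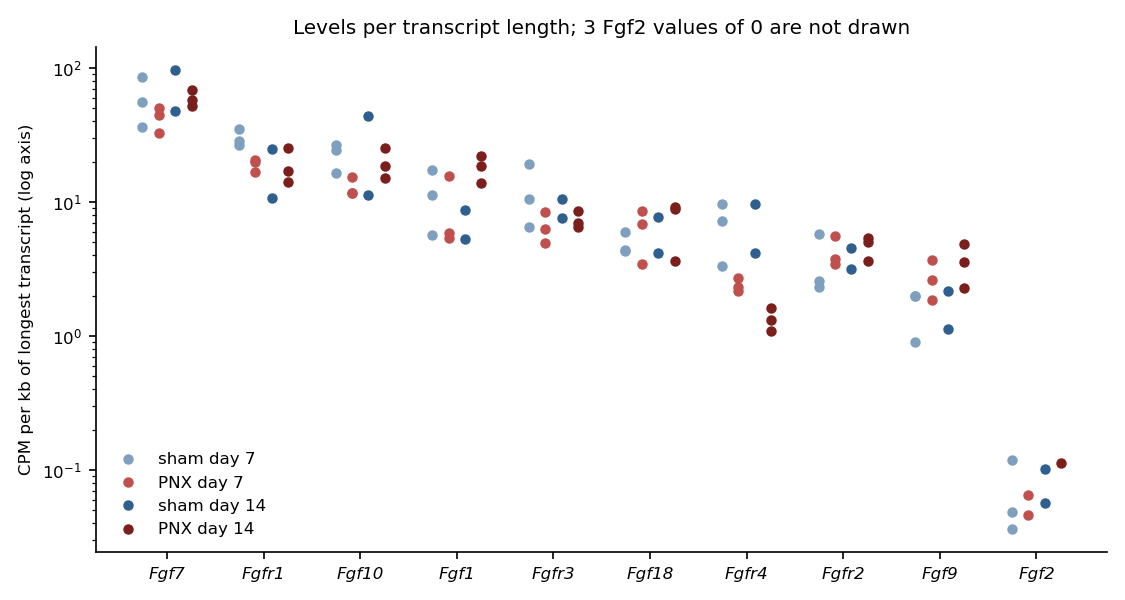
Level of each gene per kilobase of its longest transcript (vertical log axis, CPM per kb) in 11 libraries, ordered by the mean over libraries; points are libraries, coloured by group. Fgf7 is highest in the order and Fgf2 lowest, and the points of Fgfr4 form separate bands for sham and PNX.

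Per kilobase of the longest transcript, the 10 genes followed an order led by Fgf7, with a mean of 57.2 CPM per kb over 11 libraries. Fgfr1 (21.8), Fgf10 (19.96), Fgf1 (11.8) and Fgfr3 (8.72) came next, then Fgf18 (6.10), Fgfr4 (4.11), Fgfr2 (4.10), Fgf9 (2.46) and Fgf2 (0.0531), all in CPM per kb. Fgf7 lay above Fgfr1 in 11 of 11 libraries, and Fgf9 above Fgf2 likewise. Fgfr1 lay above Fgf10 in 7 of 11 libraries, Fgf1 above Fgfr3 in 7 of 11 and Fgfr4 above Fgfr2 in 4 of 11, so these neighbours did not keep their order. The rest kept it in 8 to 10 of 11 libraries. By group mean, Fgfr4 was 6th in both sham groups and 9th in both PNX groups. The order depends on the length chosen. For Fgf1 the longest transcript has 3981 bases and the median one 974, while for Fgf7 these are 2672 and 2479.5.

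At day 7, none of the 9 genes tested passed an edgeR adjusted p of 0.05, where 0.0375% of all genes did. At an unadjusted p under 0.05 there were 2, Fgfr3 and Fgfr4, against 12.7% of all genes. The PNX libraries lay wholly below the sham libraries for 3 of 9, Fgf10, Fgfr1 and Fgfr4, against 9.57% of all genes, and wholly above them for none (9.95% of all genes). DESeq2 and limma voom also called none at day 7, where they called 3.39% and 5.16% of all genes. The log2 fold change was negative for 6 and positive for 3 of the 9, with a median of -0.46 against 0.03 over all genes.

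At day 14, none passed in edgeR, where 0.00625% of all genes did. At an unadjusted p under 0.05 there were 3, Fgf1, Fgf9 and Fgfr4, against 6.81% of all genes. DESeq2 called Fgfr4 (adjusted p = 0.00333) and 0.679% of all genes, and limma voom called none of the 9 and 0% of all genes. The groups did not overlap for Fgf1 and Fgf9, which were higher in PNX (9.57% of all genes), and for Fgfr4, which was lower (8.28%). The median log2 fold change of the 9 was 0.07 against -0.07 over all genes. Fgfr4 was without overlap and lower on both days, as were 177 genes in all (1.11%). In the mean of both days 4 of the 9 had an unadjusted p under 0.05, Fgf9, Fgf10, Fgfr3 and Fgfr4, against 10.3% of all genes, and the median was -0.29.

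**Figure D4:**
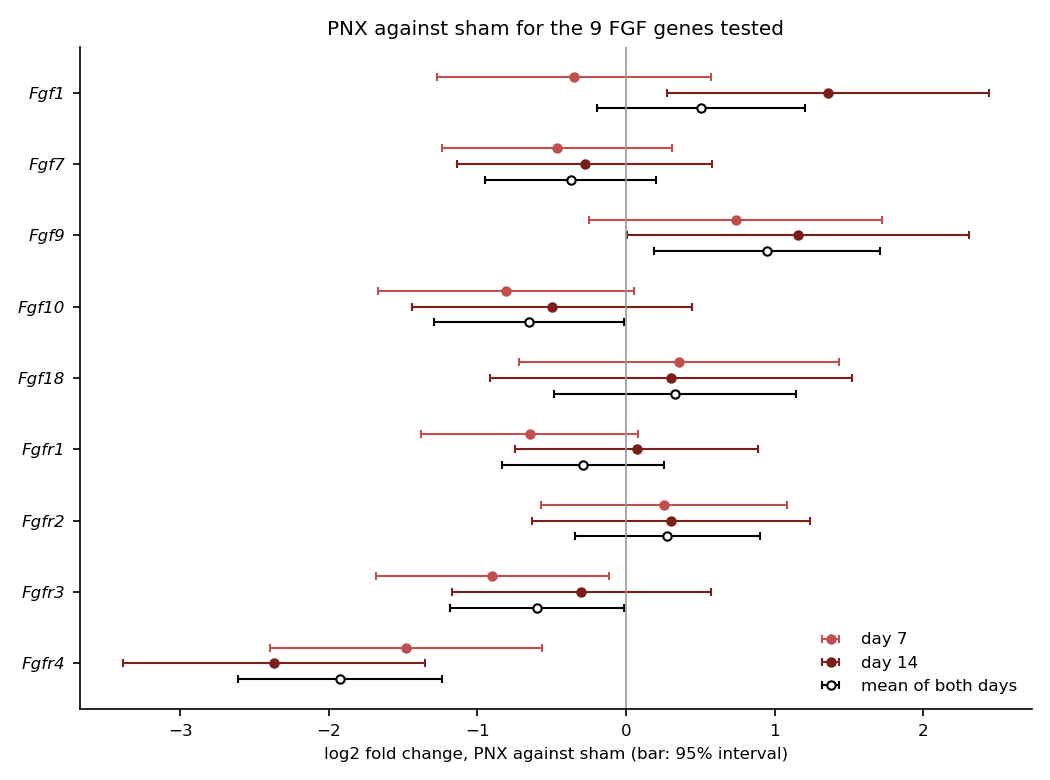
Log2 fold change of PNX against sham (horizontal axis) for the 9 genes tested, on each day and averaged over the days; bars are 95% intervals without adjustment for the number of genes. The 3 intervals of Fgfr4 lie wholly below 0, and the adjusted p of the mean of both days is 0.0137. Intervals that also exclude 0 are those of Fgfr3 (day 7 and mean), Fgf10 (mean), Fgf1 (day 14) and Fgf9 (day 14 and mean). None of these passed after adjustment.

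The effect of surgery was also compared between the days, and the days were compared within each surgery. No FGF gene passed in edgeR for the difference between the days in the PNX effect (0% of all genes called), and 1 of the 9 had an unadjusted p under 0.05 (8.76% of all genes). That gene was Fgf1, at 1.71 ± 0.67 on the log2 scale (adjusted p = 0.481). DESeq2 gave an adjusted p for 5 of the 9 and called none of them, against 1.3% of all genes. Between day 14 and day 7 after PNX none passed (0% of all genes), and 1 of the 9 had an unadjusted p under 0.05 (6.85% of all genes), again Fgf1 (1.01 ± 0.44, adjusted p = 0.724). Limma voom called Fgf1 there (1.54, adjusted p = 0.0481) and 0.693% of all genes, while DESeq2 called none of the 9 and 0.318% of all genes. In the same comparison Fgf7 was without overlap and higher at day 14 (9.02% of all genes), and Fgfr4 lower (9.08%). Between day 14 and day 7 after sham none passed in edgeR (0.0187% of all genes) and none had an unadjusted p under 0.05 (14.3% of all genes). DESeq2 and limma voom called none of the 9 there, against 5.23% and 0% of all genes. The smallest p was that of Fgfr1 (-0.75 ± 0.40, adjusted p = 0.413). Without sham day 14 replicate 2, Fgfr1 was at -1.65, with 1 sham library of day 14 left and assumed to vary like the others. The library left, replicate 1, had the lowest total counts and the highest background of all 11 libraries. Fgfr1 was also without overlap and lower in sham at day 14 than at day 7 (11.8% of all genes). These comparisons share libraries with each other and with those of surgery.

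Other genes of the pathway were followed in 6 lists, in the mean of both days, where 7460 of all genes had a positive and 8551 a negative log2 fold change. Across the lists 1 gene was called by edgeR, Ncam1, and at day 7 or day 14 alone none was. Of 12 other ligands, 6 had too few counts to be tested, and the rest were 3 higher and 3 lower. Fgf23, a hormone of phosphate balance, was at 3.90 and 9.19 CPM in sham and PNX at day 7 and at 9.91 and 15.2 CPM at day 14 (0.91 ± 0.42, adjusted p = 0.471). Fgf6 had 21 counts in all libraries (1.63 ± 1.35, adjusted p = 0.781). Of 4 FGF homologous factors, which stay inside the cell and do not act as ligands, 1 was higher and 3 lower, and those of smallest p were Fgf13 (-0.72 ± 0.88, adjusted p = 0.887) and Fgf11 (0.34 ± 0.47, adjusted p = 0.915).

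Among 10 co-receptors, decoy receptors and ligand carriers, 6 were higher and 4 lower, with a median of 0.25. Ncam1, the neural cell adhesion molecule that can bind FGF receptors, rose by 1.90 ± 0.38 on the log2 scale (edgeR adjusted p = 0.0473). Its means were 67.2 ± 31.0 CPM (SD, n = 3) in sham and 97.0 ± 27.4 CPM (SD, n = 3) in PNX at day 7. At day 14 they were 27.5 ± 13.8 CPM (SD, n = 2) and 264 ± 158 CPM (SD, n = 3). The call lay close to the threshold and held in 8 of 24 other settings, with adjusted p from 9.58e-05 to 0.377.

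Genes of heparan sulphate, the cofactor of FGF binding, numbered 22, of which 15 were higher and 7 lower and none was called (median 0.10). Smallest in p were the sulphotransferase gene Hs2st1 (1.10 ± 0.26, adjusted p = 0.0890) and the chain polymerase gene Ext1 (0.72 ± 0.24, adjusted p = 0.248). Of 20 genes of the signal relay, 19 were tested, 10 were higher and 9 lower (median 0.00), with Mapk3, a MAP kinase gene, at -0.77 ± 0.28 (adjusted p = 0.309) and Nras, a RAS gene, at 0.78 ± 0.29 (adjusted p = 0.321). Of 18 feedback inhibitors and targets, which usually follow FGF signalling, 16 were tested, 7 were higher and 9 lower (median -0.05). The Sprouty inhibitor gene Spry1 was at -0.63 ± 0.25 (adjusted p = 0.365) and the transcription factor gene Etv5 at -0.90 ± 0.37 (adjusted p = 0.404). Gpc3 belongs both to the heparan sulphate list and to the alveolar fibroblast markers.

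**Figure D5:**
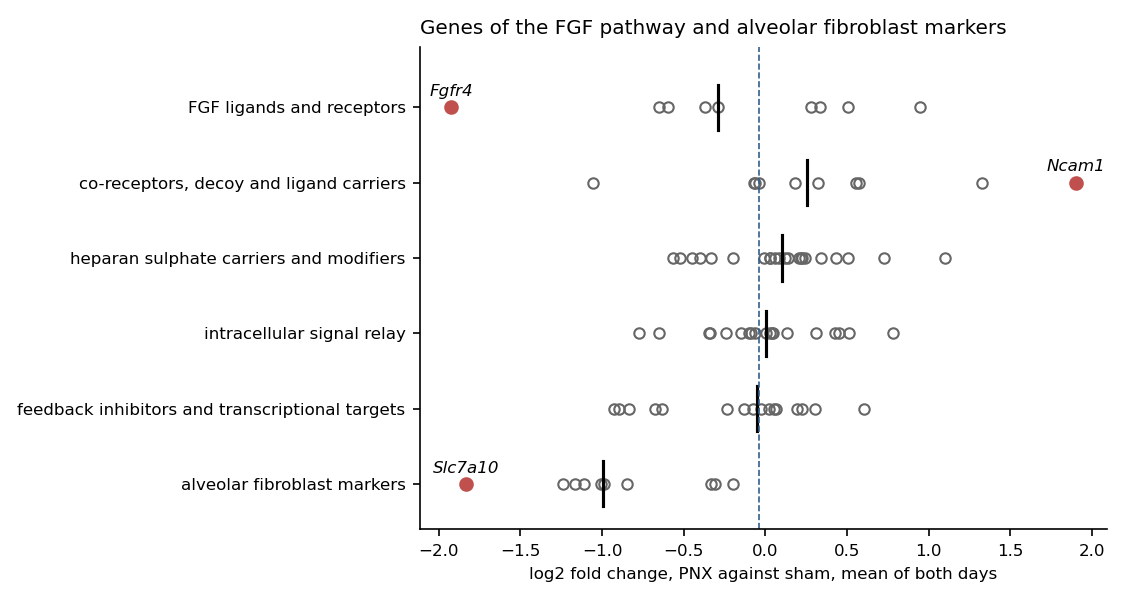
Log2 fold change of PNX against sham in the mean of both days (horizontal axis) for genes of 6 groups (rows): the FGF ligands and receptors, 4 of the pathway lists, and the alveolar fibroblast markers. Circles are genes, filled where the edgeR adjusted p is under 0.05, black bars are medians and the dashed line is the median of all genes (-0.04). Fgfr4 lies at -1.92, and the markers have a median of -0.997.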

How the data were processed

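The deposited table holds whole read counts per gene symbol, made by the authors, 1 column for each of 11 libraries. Per the labels' protocols, RNA was extracted with the RNeasy Micro kit and libraries were made with a NEBNext kit for low input. Per the submitters' processing notes, bcl2fastq 2.20.0.422 and mm10 were used. The aligner, counting tool, annotation, strand setting and filters are not given in the sources used here, nor is a batch.

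Counts were analysed with edgeR 4.0.16 in R 4.3.3. filterByExpr removed 8400 genes and left 16011. With TMM factors, the means of the 4 groups were fitted together by robust quasi-likelihood, leaving 7 residual degrees of freedom, and each contrast was adjusted by Benjamini-Hochberg with a threshold of 0.05. The SE is the absolute log2 fold change divided by the square root of F. The fitting steps were tested on simulated data. Alternatives were DESeq2 1.42.0, limma voom (limma 3.58.1), other scalings and filters, the replicate block, a GC offset, a background covariate, left-out libraries and, chosen after seeing the data, Y-linked counts. Symbols were matched to GENCODE M21 (98.4%), which gave locations, lengths and sequences.

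The 10 genes, the lists and the markers were chosen with earlier results of these data known. Named are all 10 genes on each day, otherwise those past the threshold or of smallest p. From each list they are the called genes, or the 2 of smallest p in the mean of both days. The genes most like a member are the 3 nearest to each of the 3 members of smallest p in the mean of both days, with a log2 CPM averaging 3 or more. Wt1, Msln and the markers of the sort are named as background. Figures were drawn with matplotlib 3.10.9.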

Additional observations from a re-analysis of the deposited data

How the results depend on the processing

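Of 805 log2 fold changes recomputed under other settings, 756 kept their direction and their side of the threshold, 17 changed sign, 23 lost a call and 9 gained one. Most of the 805 were of genes not called in the reported fit, which kept their side by staying uncalled. The calls in this tally were Fgfr4 and Ncam1 in the mean of both days. They held in 17 of 24 and 8 of 24 other settings, so all 23 lost calls were of these genes. The number of FGF genes called at day 7, 0 as reported, ran from 0 to 1 when 1 library was left out (Fgfr4, without sham day 7 replicate 1, adjusted p = 0.0252, in a fit that called 2.66% of all genes). At day 14 it was 0 as reported and 1 (Fgfr4) with DESeq2, with no filter on low counts (adjusted p = 0.0291, 0.117% of all genes called) and with only the groups compared (adjusted p = 0.0308, 0.368% called). With 1 library left out it ran from 0 to 1 (without sham day 14 replicate 1, 0.0644% called). In the mean of both days it was 1 as reported, 0 with limma voom and 0 with only the libraries with Y-linked counts, and ran from 0 to 1 when 1 library was left out. Between the days it was 1 with limma voom after PNX, and after sham it ran from 0 to 1 when 1 library was left out (Fgfr1, without sham day 14 replicate 2, 5.41% of all genes called). With the replicate block it was 0 in the mean of both days (Fgfr4 -1.80 ± 0.35, adjusted p = 0.0518), and 0 with the GC offset and the block together (-1.58 ± 0.30, adjusted p = 0.0717). Whether replicate numbers pair the samples is not given. Sham and PNX libraries of the same day and number had correlations of their deviations from the group means of -0.116 to 0.532, and 3 of 5 exceeded 0.1. Within groups of 2 or 3 libraries such deviations depend on each other, so these values cannot decide whether the samples were paired.

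Signs turned for genes that did not pass. With 1 library left out, log2 fold changes at day 7 ran from -1.07 to 0.086 for Fgf1, from -0.0031 to 0.62 for Fgf18 and from -0.0048 to 0.74 for Fgfr2. At day 14 they ran from -0.71 to 0.47 for Fgf7, from -1.17 to 0.96 for Fgf10 and from -0.42 to 0.95 for Fgfr1, and for Fgf13 in the mean of both days from -1.13 to 0.022. With the background covariate, Fgf1 at day 7 was at 0.15 and Fgfr2 at -0.037. With only the libraries with Y-linked counts, Fgf1 at day 7 was at 0.045, Fgf18 at day 14 at -0.22, Fgfr1 at day 14 at -0.0050, Fgf11 at -0.26 and Etv5 at 0.0013 in the mean of both days. Fgfr1 at day 14 was at -0.029 with total counts and at -0.38 without the 3 libraries of highest background. The cause was not tested. Scaling by total counts moved the median of all genes from 0.03 to 0.21 at day 7 and from -0.07 to -0.26 at day 14.

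Counts over all genes differed between tools: at day 7 edgeR called 6 higher and 0 lower, DESeq2 122 and 312, and limma voom 249 and 577. At day 14 these were 1 and 0 in edgeR and 63 and 45 in DESeq2, and in the mean of both days 22 and 9 against 124 and 177. With 1 library left out, the share of all genes called ran from 0.0188% to 2.66% at day 7, from 0% to 0.418% at day 14 and from 0.0502% to 1.2% in the mean of both days. The fit of only the groups compared gives no separate value for the mean of both days or the difference between the days. Sham at day 14 has 2 libraries, and with 1 left out the other is assumed to vary like the other groups. With low counts, Fgf2, Fgf18 and Fgf9 have the least precision.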
